A study of Mus musculus with 4 samples.

Results

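Txnip, the gene of thioredoxin-interacting protein, was followed in single-cell libraries of mouse renal cortex as 1 of 21279 genes with a read molecule in the deposited files and 1 of 20218 with one in the retained cells. It was chosen by name, as a gene known to be induced by glucose, and its identifier in the files, ENSMUSG00000038393, was matched to the symbol through the GENCODE annotation. The libraries were made by Drop-seq, a droplet method that gives each captured mRNA molecule a cell barcode and a unique molecular identifier (UMI), so that molecules rather than reads are counted. Akita mice (C57BL/6-Ins2Akita/J) have a germline mutation of Ins2, which encodes insulin, and become diabetic through loss of insulin-producing beta cells. The 2 Akita libraries came from mice aged 116 and 119 days, and the 2 wild-type libraries from counterparts aged 45 and 51 days, with 1 mouse per library. All 4 mice had standard chow and water freely available, and their cortex was digested with collagenase before capture. Genotype and age ran together in every comparison of Akita with wild type below and cannot be told apart.

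Txnip is an alpha-arrestin that binds reduced thioredoxin and holds it inactive, and it lowers glucose uptake by taking glucose transporters off the cell surface. Its transcription is driven by the glucose-sensing factors ChREBP (Mlxipl) and MondoA (Mlxip), which pair with Mlx and bind a carbohydrate response element in its promoter. In the kidney, Txnip is known for its induction in diabetes and for links to oxidative stress and to the NLRP3 inflammasome. Glucose is taken back from the filtrate by the proximal tubule, whereas the loop of Henle and the segments after it mainly handle salt, acid and water.

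The Txnip gene lies on the plus strand of chromosome 3 at chr3:96557957-96561883 (GRCm38) and its longest annotated transcript has 8 exons. The 150 bases just before its start site are shown because they hold the glucose-responsive element named above. They run 5′ to 3′ on the plus strand at chr3:96557807-96557956, taken from RefSeq on GRCm38.p6, and the capitals mark the paired CACGAG motifs.
Txnip promoter: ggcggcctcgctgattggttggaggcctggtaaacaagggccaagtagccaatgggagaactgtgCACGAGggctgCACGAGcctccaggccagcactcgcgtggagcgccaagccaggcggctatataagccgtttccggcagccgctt
The pair begins 85 bases before the start site, and its copies are separated by 5 bases. The spaced pattern CACGAGNNNNNCACGAG, read off this promoter and searched on both strands, was present in the 250 bases before the start of 1 of 32851 genes (0.00304%), which was Txnip itself. The looser form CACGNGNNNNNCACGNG was found in 15 of them, and CACGAG alone in 5.37%. A CCAAT motif was present once on each strand of the Txnip promoter, and 33.8% of all promoters held at least 1. These matches are descriptions of sequence, and no factor binding was measured.

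An antisense gene, Gm15441 (ENSMUSG00000074398, chr3:96555765-96566801, minus strand), spans the whole of Txnip and shares 606 of its 3123 exonic bases. The last Txnip exon, chr3:96560479-96561883, shares none with the exons of Gm15441. Drop-seq captures molecules at the poly(A) tail, and whether the counting used strand is not given in the sources used here. Gm15441 had 5 and 10 UMIs in the retained cells of Akita replicates 1 and 2, and 9 UMIs in each wild-type library. It had too few counts to enter any test.

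Barcodes counted as cells with 200 or more detected genes and no more than 50% mitochondrial UMIs. By this filter 311 and 600 cells were left in Akita replicates 1 and 2, against 564 and 441 in Wild-type replicates 1 and 2, with a median of 746.5 to 835 UMIs per cell. Txnip was a sparse gene at this depth, with 37 and 38 UMIs in the retained Akita cells and 33 and 17 in the retained wild-type cells. Among the 106 cells with any Txnip, 92 had 1 UMI, 9 had 2 and 5 had 3. Markers of the labelled tissue were present: 16 proximal tubule markers summed to 137700 of the UMIs of proximal tubule-like cells and 3534 of those of loop of Henle-like cells. Glomerular, vascular and stromal cells of the cortex were nearly absent, with 22, 15 and 18 UMIs from the podocyte, endothelial and stromal marker lists in all retained cells and the endothelial markers Pecam1, Kdr, Emcn and Cdh5 at 0. Doublets were called in 6 cells, which were kept.

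The libraries of Akita replicate 2 and Wild-type replicate 1 were not separate. They shared 884 cell barcodes, whereas every other pair shared 3 or 4. Of their retained cells, 438 of 600 in Akita replicate 2 (73.0%) and 454 of 564 in Wild-type replicate 1 (80.5%) carried a shared barcode, and 424 barcodes were retained in both. Txnip followed the barcodes across the files. Of these 424 barcodes, 19 had Txnip in both files, 4 in Akita replicate 2 alone and 7 in Wild-type replicate 1 alone, and in 18 of the 19 the UMI number was equal. Retained cells with a shared barcode carried 30 of 38 Txnip UMIs in Akita replicate 2, and 30 of 33 in Wild-type replicate 1. The ratio of total UMIs, Akita replicate 2 over Wild-type replicate 1, fell into a mode near 1.33 for 363 shared barcodes and near 0.546 for 521, so a barcode could also be assigned to whichever file held it in excess. The level of Txnip and its share of cells are therefore compared between genotypes with the files as deposited, with each shared barcode in 1 file and with shared barcodes left out. The listed genes are compared with the files as deposited only. Akita replicate 1 and Wild-type replicate 2 had no retained barcode in common.

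Cells were clustered without Txnip, and clusters were named from marker genes. Proximal tubule-like cells made up 1368 of 1916 cells, loop of Henle-like cells 273, intercalated-like cells 111 and connecting tubule-like cells 70, and 94 cells led by Cd74 and Tmsb4x stayed unnamed. The loop of Henle-like cluster was led by Umod, Egf and Wfdc15b and also by Pvalb and Slc12a3, markers of the distal convoluted tubule, so it held both segments. The loop of Henle-like, intercalated-like and connecting tubule-like cells together are called distal tubule-like below.

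Txnip was low in the proximal tubule, and its level over the distal tubule-like cells together was several-fold higher in every library. It stood at 37.5 and 16.7 CPM (UMIs per 1e6 UMIs of the same cells) in the proximal tubule-like cells of Akita replicates 1 and 2, and at 19.3 and 16.7 CPM in those of Wild-type replicates 1 and 2. In distal tubule-like cells it stood at 162 and 149 CPM in the Akita libraries and at 131 and 53.3 CPM in the wild-type libraries. No proximal value reached any distal one, and the proximal level was 0.232 (95% interval 0.113 to 0.472) of the distal level in Akita replicate 1, 0.112 (0.0465 to 0.244) in Akita replicate 2, 0.147 (0.0661 to 0.314) in Wild-type replicate 1 and 0.313 (0.107 to 0.931) in Wild-type replicate 2. These intervals cover counting error only. Proximal tubule-like cells held 71.4% of the cells and 75.2% of the UMIs but 36.8% of the Txnip UMIs, whereas loop of Henle-like cells held 15.5% of the UMIs and 50.4% of the Txnip UMIs.

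Fitted with the library as a block, Txnip was lower in proximal than in distal tubule-like cells by a log2 fold change of -2.41 ± 0.28 (SE; 95% interval -3.02 to -1.80; adjusted p = 4.7e-06, edgeR quasi-likelihood test), and in 4 of 4 libraries. Of 4168 genes tested, 48.6% passed, 22.7% were lower in proximal cells by the same rule and 4.97% had a log2 fold change at or below that of Txnip. The clustering drew on 2000 variable genes of the same cells, and Txnip was kept out of it, so the shares of other genes describe the contrast rather than test it. The log2 fold change was -2.30 once shared barcodes were assigned to 1 file each. With shared barcodes left out Txnip did not pass the filter on low counts, and Wild-type replicate 1 then had 5 distal tubule-like cells.

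Within the distal segments, the order of the levels pooled over all libraries was 144 CPM in loop of Henle-like cells (95% interval 110 to 184; 63 UMIs), 99.1 CPM in intercalated-like cells (51.2 to 173; 12 UMIs) and 32.0 CPM in connecting tubule-like cells (3.88 to 116; 2 UMIs). Proximal tubule-like cells followed at 21.6 CPM (15.8 to 28.8; 46 UMIs). The order was not the same in every library. In Wild-type replicate 2 loop of Henle-like cells were the lowest of the 3 at 40.5 CPM, with intercalated-like cells at 83.9 CPM and connecting tubule-like cells at 64.4 CPM, on 4, 3 and 1 UMIs. Connecting tubule-like cells had 0 Txnip UMIs in Akita replicate 1 and in Wild-type replicate 1. Loop of Henle-like and intercalated-like cells did not differ beyond counting error when pooled, with a ratio of 1.45 (0.773 to 2.95). The 2 UMIs of connecting tubule-like cells could not place that class against intercalated-like cells (ratio of intercalated-like over connecting tubule-like 3.10, 0.689 to 28.5) or against proximal tubule-like cells (ratio of connecting tubule-like over proximal 1.48, 0.174 to 5.66). The unnamed cluster had 2 Txnip UMIs, or 25.4 CPM (3.07 to 91.7). Intercalated-like cells are the acid-base cells of the late nephron, and their Txnip level was above that of proximal tubule-like cells by a ratio of 4.59 (2.21 to 8.80). These ratios pool libraries that share barcodes, so their counting intervals are narrower than independent cells would give.

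**Figure D1:**
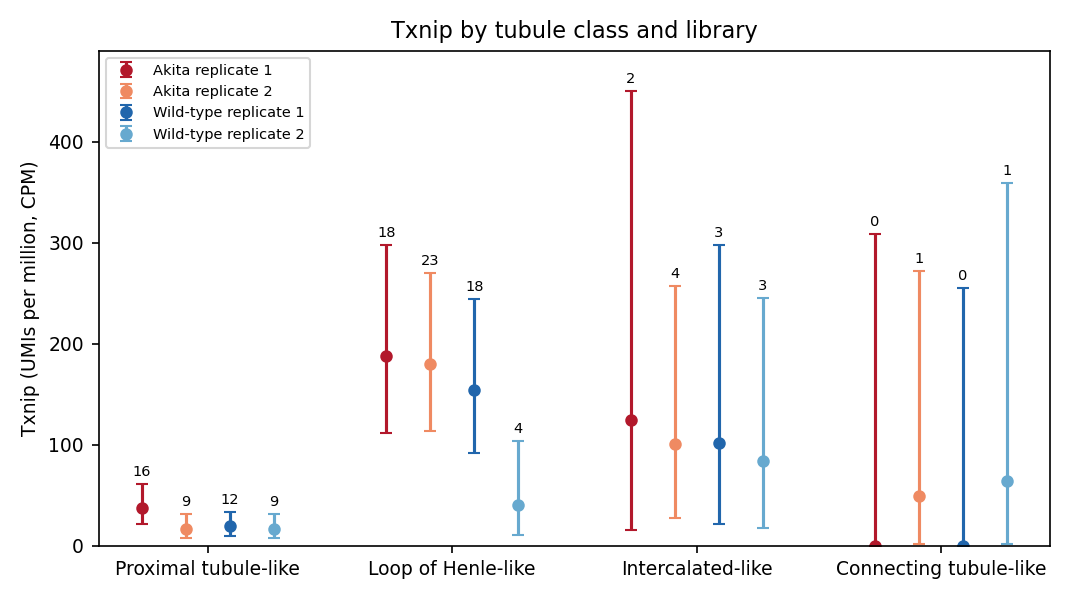
Txnip in CPM (linear axis) by tubule class, 1 point per library with its 95% Poisson interval and the Txnip UMI count printed above it. The proximal tubule-like points lie between 16.7 and 37.5 CPM, and in loop of Henle-like cells 3 libraries lie between 154 and 188 CPM while Wild-type replicate 2 is at 40.5 CPM.

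Txnip was present on both sides of a marker split of the loop of Henle-like cluster. The split was made after the Txnip values were seen, by whether a cell held more loop of Henle or more distal convoluted tubule marker UMIs. It gave 139 cells with more convoluted tubule markers and 127 with more loop markers. Txnip was at 151 CPM (105 to 212) in the convoluted tubule side and 139 CPM (92.9 to 199) in the loop side, a ratio of 1.09 (0.645 to 1.86). Another 7 cells were tied, and 24 lay within 1 UMI of a tie. Umod, the loop of Henle secretory protein, had 287 UMIs on the convoluted tubule side and 957 on the loop side. Slc12a3, the thiazide-sensitive salt transporter of the distal convoluted tubule, had 2472 and 655. Both genes were in the marker lists that made the split, so their separation was built in and cannot show that the sides were pure segments.

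Within the proximal tubule, Txnip was spread thinly. The 5 proximal clusters stood between 13.2 and 36.3 CPM, and the cluster with S1 markers (13.2 CPM, 2.73 to 38.7) and the cluster with S3 markers (18.1 CPM, 5.88 to 42.2) overlapped within counting error. A cluster of 303 cells with a median of 3239 UMIs held 29 of the 46 proximal Txnip UMIs, at 22.7 CPM. Its proximal name rested on 3 markers among its top 50 genes by fold, with 0 in the top 10. Detection went with depth, since proximal cells with Txnip had a median of 2937 UMIs and those without it 780.

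Free RNA was gauged with Umod, which proximal tubule cells are not known to make. In proximal tubule-like cells Umod stood at 1.16% to 2.69% of its loop of Henle-like level in the 4 libraries, and Txnip stood at 9.27% to 41.2%. Txnip carried over in the ratio of Umod would have given 1.09 to 3.50 CPM in proximal tubule-like cells, against the 16.7 to 37.5 CPM measured. That figure covers carry-over from loop of Henle-like cells only, and the source of the proximal Txnip UMIs was not tested. A Umod UMI was present in 7.31% of proximal tubule-like cells and 70.3% of loop of Henle-like cells. A Txnip UMI was present in 3.14% and 17.2% of them, with median depths of 793 and 806 UMIs. No class known to lack Txnip was among the clusters, so its share in such a class cannot be given. Barcodes that failed the cell filter held Txnip at 18.5 CPM (5.05 to 47.5; 4 UMIs) when they had under 200 genes and at 11.7 CPM (6.95 to 18.5; 18 UMIs) when they were over 50% mitochondrial. The pooled proximal tubule-like level was 21.6 CPM (15.8 to 28.8), and these intervals overlapped.

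The study's central comparison, of diabetic with wild-type cortex, gave higher Txnip in both Akita libraries but no call. Over all retained cells Txnip stood at 66.3 CPM (46.7 to 91.4) in Akita replicate 1 and 50.3 CPM (35.6 to 69.0) in Akita replicate 2, against 40.6 CPM (27.9 to 57.0) in Wild-type replicate 1 and 24.1 CPM (14.1 to 38.7) in Wild-type replicate 2. The groups did not overlap, and Txnip averaged 58.3 ± 11.3 CPM over the Akita libraries and 32.4 ± 11.6 CPM over the wild-type libraries (SD, n = 2 each). Both Akita libraries stood above both wild-type libraries for 12.6% of the 7169 genes tested. The fitted log2 fold change was 0.81 ± 0.35 (SE; 95% interval 0.08 to 1.54), with an unadjusted p of 0.031 and an adjusted p of 1.00 by edgeR's quasi-likelihood test. That test takes the libraries as independent, which Akita replicate 2 and Wild-type replicate 1 were not, so its p-values and intervals are not calibrated. No gene of 7169 passed the adjusted threshold of 0.05 (0%), and 68 (0.949%) had an unadjusted p under 0.05, among which Txnip ranked 32nd. DESeq2 and limma-voom also called no gene, with 7 and 57 genes at an unadjusted p under 0.05. In these sums, more Txnip per cell and a larger share of the cells that hold it cannot be told apart. With the files as deposited, distal tubule-like cells made up 20.9% and 25.8% of the cells in Akita replicates 1 and 2, and 20.9% and 26.3% in Wild-type replicates 1 and 2.

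The size of the difference turned on single libraries and on the shared barcodes. The log2 fold change was 0.45 when Wild-type replicate 2 was dropped, and 1.29 when Wild-type replicate 1 was. It was 0.65 without Akita replicate 1 and 0.94 without Akita replicate 2. With each shared barcode kept in 1 file, Txnip was at 66.3 and 61.6 CPM in the Akita libraries and at 25.01 and 24.1 CPM in the wild-type libraries. The log2 fold change was then 1.40 (0.59 to 2.21), with an unadjusted p of 0.0023 that ranked 6th of 6306 genes and an adjusted p of 1.00 (edgeR). This assignment also changed the make-up of the libraries. Distal tubule-like cells, which held more Txnip, were then 129 of 432 cells in Akita replicate 2 and 33 of 308 in Wild-type replicate 1. The part of this shift in the larger fold change was not tested. Keeping shared barcodes in the opposite file gave 66.3 and 42.3 CPM for Akita and 59.7 and 24.1 CPM for wild type, so the groups overlapped and the log2 fold change was 0.49. Distal tubule-like cells were then 64 of 330 in Akita replicate 2 and 90 of 366 in Wild-type replicate 1. Leaving shared barcodes out kept 8 Txnip UMIs in Akita replicate 2 and 3 in Wild-type replicate 1, with a log2 fold change of 1.42 (0.16 to 2.68). Distal tubule-like cells were then 38 of 162 in Akita replicate 2 and 5 of 110 in Wild-type replicate 1. Both Akita libraries stood above both wild-type libraries for 14% of 7169 genes with each shared barcode in 1 file. That share was 17.2% in the opposite file and 13.9% with shared barcodes left out. Akita replicate 1 over Wild-type replicate 2, the pair with no retained barcode in common, gave a ratio of 2.75 (1.51 to 5.20). That interval covers counting error only and compares 2 libraries, not 2 genotypes.

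**Figure D2:**
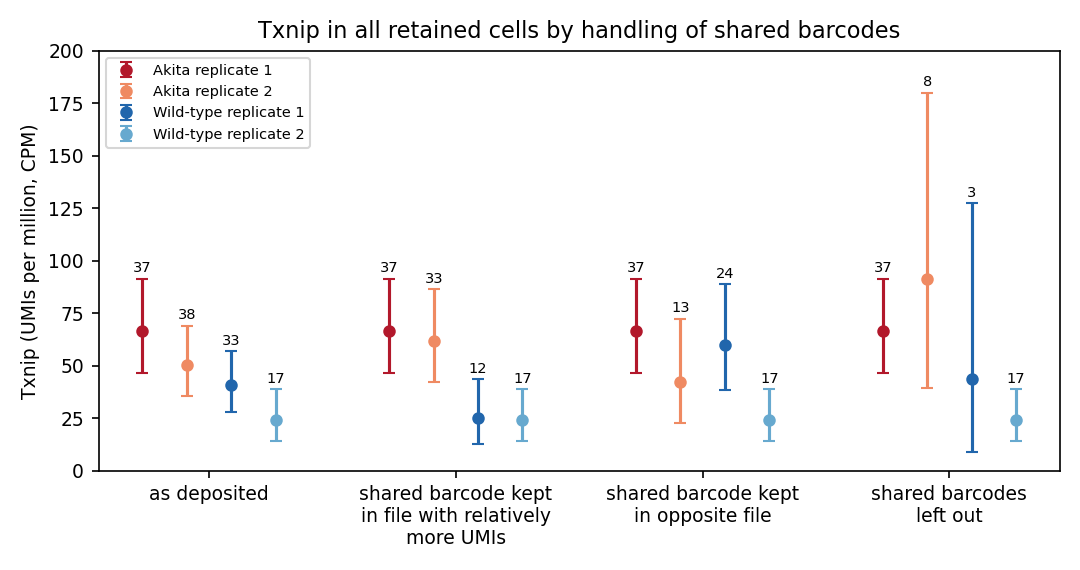
Txnip in CPM (linear axis) over all retained cells, 1 point per library with its 95% Poisson interval and the UMI count above it, for 4 ways of handling the barcodes shared by Akita replicate 2 and Wild-type replicate 1. Akita replicate 1 (66.3 CPM) and Wild-type replicate 2 (24.1 CPM) stay fixed, and Wild-type replicate 1 stands at 40.6, 25.01, 59.7 and 43.6 CPM.

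The distal tubule-like cells showed the same order of libraries as the whole cortex. Txnip averaged 155 ± 9.20 CPM over the Akita libraries and 92.1 ± 54.8 CPM over the wild-type libraries (SD, n = 2 each), and the groups did not overlap, as was so for 10.4% of the 2401 genes tested in this direction. The log2 fold change was 0.76 ± 0.42 (95% interval -0.11 to 1.63; adjusted p = 1.00, edgeR). No gene passed (0%), and 20 genes (0.833%) had an unadjusted p under 0.05. Leaving out Wild-type replicate 2 gave 0.24 and leaving out Wild-type replicate 1 gave 1.59. With each shared barcode in 1 file it was 1.07. In the opposite file the levels were 162 and 172 CPM for Akita and 142 and 53.3 CPM for wild type, without overlap, and the log2 fold change was 0.83. The share of all genes without overlap was not counted for distal cells in that setting, so nothing is read from it. With shared barcodes left out the levels were 162 and 199 CPM for Akita, against 372 and 53.3 CPM for wild type, where Wild-type replicate 1 rested on 1 Txnip UMI in 5 cells. That library was then the highest and the groups overlapped, although the fitted log2 fold change was 1.50 (-0.12 to 3.11).

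Of the other classes, only loop of Henle-like cells numbered 20 or more per library. Txnip stood there at 188 and 180 CPM in Akita replicates 1 and 2 (18 and 23 UMIs), against 154 and 40.5 CPM in Wild-type replicates 1 and 2 (18 and 4 UMIs). Wild-type replicate 2 lay apart from the other libraries, and the Akita values were close to that of Wild-type replicate 1. The log2 fold change was 0.89 ± 0.47 (95% interval -0.08 to 1.85; adjusted p = 1.00, edgeR), and both Akita libraries lay above both wild-type libraries for 10.8% of 1654 genes. No gene passed (0%), and 20 genes (1.21%) had an unadjusted p under 0.05. Dropping Wild-type replicate 2 gave 0.24, and dropping Wild-type replicate 1 gave 2.24. With each shared barcode in 1 file, Wild-type replicate 1 kept 6 Txnip UMIs in 29 loop of Henle-like cells at 112 CPM (41.3 to 245), and the log2 fold change was 1.53. In the opposite file the levels were 188 and 159 CPM for Akita, against 197 and 40.5 CPM for wild type. Wild-type replicate 1 was then the highest, with 13 Txnip UMIs in 47 cells, and the groups overlapped. With shared barcodes left out the levels were 188 and 205 CPM for Akita, against 372 and 40.5 CPM for wild type, with 1 Txnip UMI in 5 such cells of Wild-type replicate 1. The groups then overlapped, with Wild-type replicate 1 the highest, although the fitted log2 fold change was 1.94 (0.021 to 3.86). Umod in the same cells was at 3408 and 2861 CPM in the Akita libraries and at 2949 and 2208 CPM in the wild-type libraries, lowest in the library with the least Txnip, and its part in the result was not tested.

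In proximal tubule-like cells, the segment that reabsorbs filtered glucose, the groups overlapped. Txnip averaged 27.1 ± 14.8 CPM over the Akita libraries and 18.0 ± 1.83 CPM over the wild-type libraries (SD, n = 2 each), and Akita replicate 1 alone was high. The log2 fold change was 0.53 ± 0.54 (95% interval -0.63 to 1.68; adjusted p = 1.00, edgeR), and without Akita replicate 1 it was -0.06. Of 5969 genes tested in these cells, none passed (0%) and 57 (0.955%) had an unadjusted p under 0.05. With each shared barcode in 1 file, Txnip was at 37.5 and 24.9 CPM for Akita and at 12.4 and 16.7 CPM for wild type, and the log2 fold change was 1.11 (-0.19 to 2.40). In the opposite file Txnip was at 37.5 and 12.4 CPM for Akita and at 31.7 and 16.7 CPM for wild type, with a log2 fold change of 0.23. With shared barcodes left out, Txnip had 3 UMIs in Akita replicate 2 and 2 in Wild-type replicate 1 and did not pass the filter on low counts. At this depth the interval from the files as deposited covered both directions.

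The genotype difference was not shown to depend on the segment. The interaction, the proximal log2 fold change minus the distal one, was -0.31 ± 0.63 (95% interval -1.60 to 0.99; adjusted p = 1.00, edgeR), and no gene of 5373 passed (0%). With each shared barcode in 1 file it was 0.0042, and with shared barcodes left out -0.36.

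**Figure D3:**
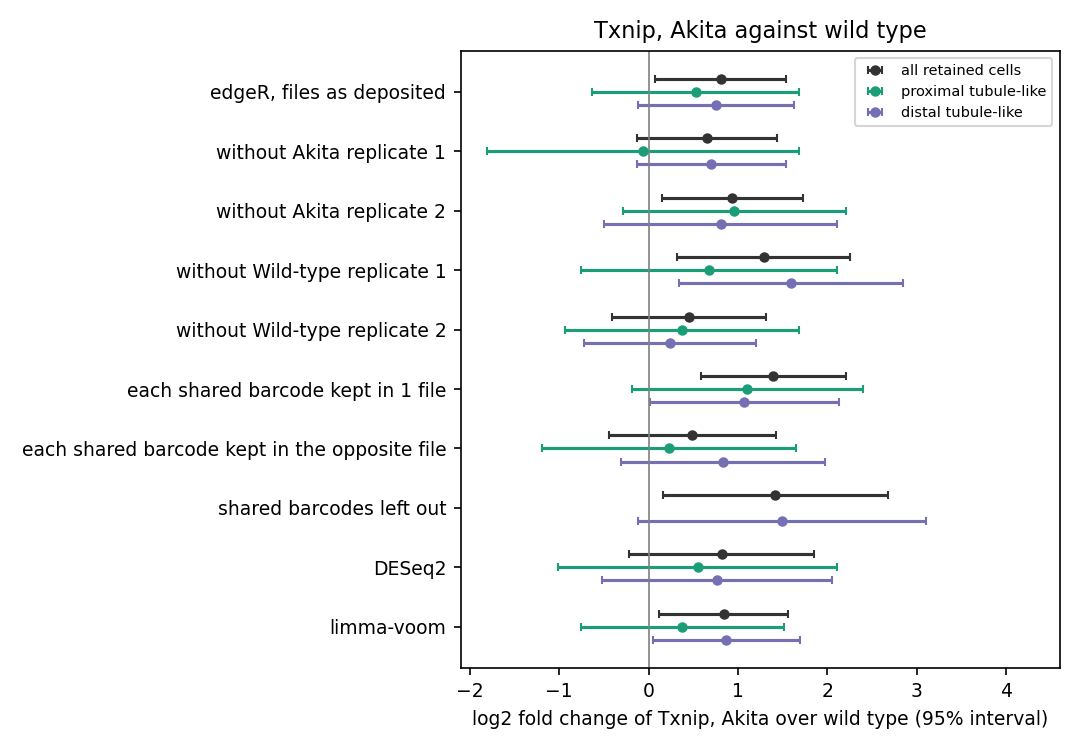
Log2 fold change of Txnip, Akita over wild type, with 95% intervals, in all retained cells, proximal tubule-like cells and distal tubule-like cells, for the files as deposited and for 9 other settings. Points lie right of 0 except the proximal value without Akita replicate 1 (-0.06), and the proximal value with shared barcodes left out is not drawn because Txnip was not tested there.

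The share of cells with a Txnip UMI was higher in both Akita libraries as sequenced, and the groups overlapped in 1 random draw at equal depth. It was 9.003% (95% Clopper-Pearson interval 6.07 to 12.7) and 5.50% (3.82 to 7.64) in the Akita libraries, and 5.14% (3.47 to 7.30) and 3.63% (2.09 to 5.83) in the wild-type libraries. The exact two-sided permutation test gave p = 0.333, the smallest that 2 against 2 libraries allow. Each cell was then thinned to 500 UMIs by 1 random draw, which left out 474 shallower cells (88 and 171 in Akita, 103 and 112 in wild type). The thinned shares were 2.24% and 2.80% in Akita and 3.47% and 1.52% in wild type. Other draws were not made, so the spread between draws is not known. Those shares rest on 5, 12, 16 and 5 cells in the same order, and the groups overlapped (exact permutation p = 1). In distal tubule-like cells the unthinned shares were 20.0% and 14.8% in Akita and 14.4% and 6.90% in wild type, and the thinned shares 6.38% and 8.62% in Akita and 8.65% and 4.55% in wild type. In proximal tubule-like cells they were 6.01% and 2.20% in Akita and 2.87% and 2.61% in wild type before thinning. After it they were 0.595% and 0.690% in Akita and 2.10% and 0.437% in wild type, on 1, 2, 7 and 1 cells. No change is read from thinned shares that rest on so few UMIs.

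The unthinned shares also moved with the shared barcodes. Over all retained cells the difference, Akita minus wild type, was 2.87 percentage points as deposited, 3.98 with each shared barcode in 1 file and 3.79 with shared barcodes left out (exact permutation p = 0.333 in each). With shared barcodes in the opposite file the shares were 9.003% and 3.94% in Akita and 5.46% and 3.63% in wild type, so the groups overlapped. In distal tubule-like cells it was 6.77 points as deposited, against 2.92 with each shared barcode in 1 file and 1.81 with shared barcodes left out (exact permutation p = 1 in both of these). With each shared barcode in 1 file the distal shares were 20.0% and 14.0% in Akita and 21.2% and 6.90% in wild type, so the groups overlapped and Wild-type replicate 1 was the highest. In the opposite file the distal shares were 20.0% and 14.1% in Akita and 12.2% and 6.90% in wild type, without overlap. How many other genes had such a separation of their shares was not counted. In proximal tubule-like cells the difference was 1.36 points as deposited, 2.35 with each shared barcode in 1 file and 2.02 with shared barcodes left out (exact permutation p = 1, 0.333 and 0.667 in that order). In the opposite file the proximal shares were 6.01% and 1.21% in Akita and 3.45% and 2.61% in wild type, and the groups overlapped.

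No gene around Txnip was called between genotypes, nor was any other gene tested. Of 83 other genes in 10 lists, covering its partners, regulators, relatives and fellow targets, 41 had enough counts to be tested over all retained cells. None passed, against 0% of the 7169 genes tested, and none had an unadjusted p under 0.05, against 0.949%. Their median log2 fold change was -0.0025 against 0.0013 over all genes tested. The thioredoxin system, which Txnip inhibits, had 8 of 9 members tested, with Txn1 (cytosolic thioredoxin) at a log2 fold change of 0.06 ± 0.21, Txn2 (mitochondrial thioredoxin) at -0.34 ± 0.25, Txndc17 (a thioredoxin-related protein) at -0.24 ± 0.22 and Txnrd1 (thioredoxin reductase) at 0.07 ± 0.23. Its median was -0.15. Txn1 itself stood at 525 and 638 CPM in the Akita libraries and at 566 and 548 CPM in the wild-type libraries, so the groups overlapped.

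Arrdc4, the alpha-arrestin closest to Txnip and likewise a target of the glucose sensors, was at 5.38 and 11.9 CPM in the Akita libraries and at 14.8 and 7.10 CPM in the wild-type libraries. It did not pass the filter on low counts, and its groups overlapped. Arrdc3, another alpha-arrestin, was at 62.7 and 23.8 CPM for Akita and at 28.3 and 27.0 CPM for wild type, with a log2 fold change of 0.58 ± 0.42. Akita replicate 1 was the highest library for Arrdc3, as it was for Txnip. Arrdc1 had 30 UMIs in all and was not tested. Among the sensors, Mlxipl was at 278 and 127 CPM for Akita and at 189 and 179 CPM for wild type, and Akita held both the highest and the lowest library. Its log2 fold change was 0.10 ± 0.27, and that of its partner Mlx was -0.41 ± 0.39. Mlxip had 14 UMIs in all and was not tested.

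Of 16 targets of the glucose sensors 8 were tested, Txnip included, none passed, and their median log2 fold change was -0.11. The 7 other tested targets lay between -0.58 (Fasn, fatty acid synthase) and -0.0025 (Tkt). Khk (ketohexokinase, the first enzyme of fructose use) was at -0.13 ± 0.21, Tkt (transketolase) at -0.0025 ± 0.24, G6pc (glucose-6-phosphatase, the last step of glucose production) at -0.14 ± 0.23 and Gpd1 at -0.07 ± 0.23. For the glucose transporters, 3 of 5 were tested, with Slc2a2 (GLUT2, the basolateral exit of the proximal tubule) at -0.09 ± 0.28, Slc2a5 (the fructose transporter GLUT5) at 0.35 ± 0.60 and Slc5a1 (SGLT1) at -0.21 ± 0.35. Slc2a1, the GLUT1 transporter that Txnip protein takes off the surface, had 28 UMIs in all and was not tested. Slc5a2 (SGLT2) had 32 UMIs, at 17.9 and 10.6 CPM for Akita and 11.1 and 7.10 CPM for wild type, and was not tested.

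The genes of Txnip protein turnover, 6 of 6 tested, had a median of 0.05, with the ubiquitin ligase Itch at 0.35 ± 0.33, Wwp1 at 0.05 ± 0.21 and Nedd4l at -0.26 ± 0.36. Prkaa2, a catalytic subunit of AMP-activated kinase, which marks Txnip protein for degradation, was at 0.45 ± 0.29. Of the inflammasome list only Pycard, the adaptor ASC, could be tested (1 of 6), at -0.50 ± 0.43. Nlrp3 had 1 UMI, Il1b 4 and Il18 12.

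Txnip also answers to glucocorticoids, to tissue handling and to injury, and those lists were read beside it. Of the glucocorticoid and fasting genes 5 of 10 were tested, with a median of 0.13. Fkbp5 stood at 0.13 ± 0.30, Klf9 at 0.013 ± 0.23, Sgk1 at 0.24 ± 0.48 and Irs2 at 0.25 ± 0.46. Of the dissociation response 4 of 16 were tested, with a median of 0.0041. Jund stood at 0.06 ± 0.25, Jun at 0.28 ± 0.36, Klf6 at -0.06 ± 0.41 and Ier3 at -0.63 ± 0.49, and the immediate early genes Fos, Fosb and Egr1 had 2, 2 and 1 UMIs. Of the tubular injury list 4 of 9 were tested, with a median of 0.16. Spp1 (osteopontin) stood at -0.13 ± 0.24, Clu (clusterin) at 0.15 ± 0.27, Krt8 at 0.16 ± 0.30 and Cdkn1a (p21, the cell cycle inhibitor) at 0.78 ± 0.60. Havcr1 (KIM-1) had 2 UMIs. None of these passed the test, as was so for every gene tested.

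Between segments, by contrast, the same lists split. In the proximal over distal contrast 29 of the 83 genes were tested, 13 were higher and 8 lower in proximal cells, against 25.9% and 22.7% of all genes tested. These genes, unlike Txnip, were open to selection for the clustering, so their values describe the segments and test nothing. The glucose sensor Mlxipl and 4 of the 6 other tested targets ran opposite to Txnip. Mlxipl had a log2 fold change of 2.46 ± 0.28, Khk of 2.55 ± 0.23, G6pc of 4.06 ± 0.47 and Gpd1 of 3.13 ± 0.40, proximal over distal. Elovl6, a fatty acid elongase, was the other listed target lower in proximal cells (-1.34 ± 0.28). Txn1 was higher in proximal cells (1.75 ± 0.15) and Txndc17 (1.38 ± 0.16) likewise, so Txnip and cytosolic thioredoxin had opposite segment patterns. Pycard ran with Txnip (-4.89 ± 0.49), at 3.64 CPM in proximal and 123 CPM in distal tubule-like cells on average. So did the dissociation genes Ier3 (-4.54 ± 0.45), Jun (-1.84 ± 0.38) and Jund (-0.83 ± 0.19), whose part in the Txnip contrast was not tested.

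**Figure D4:**
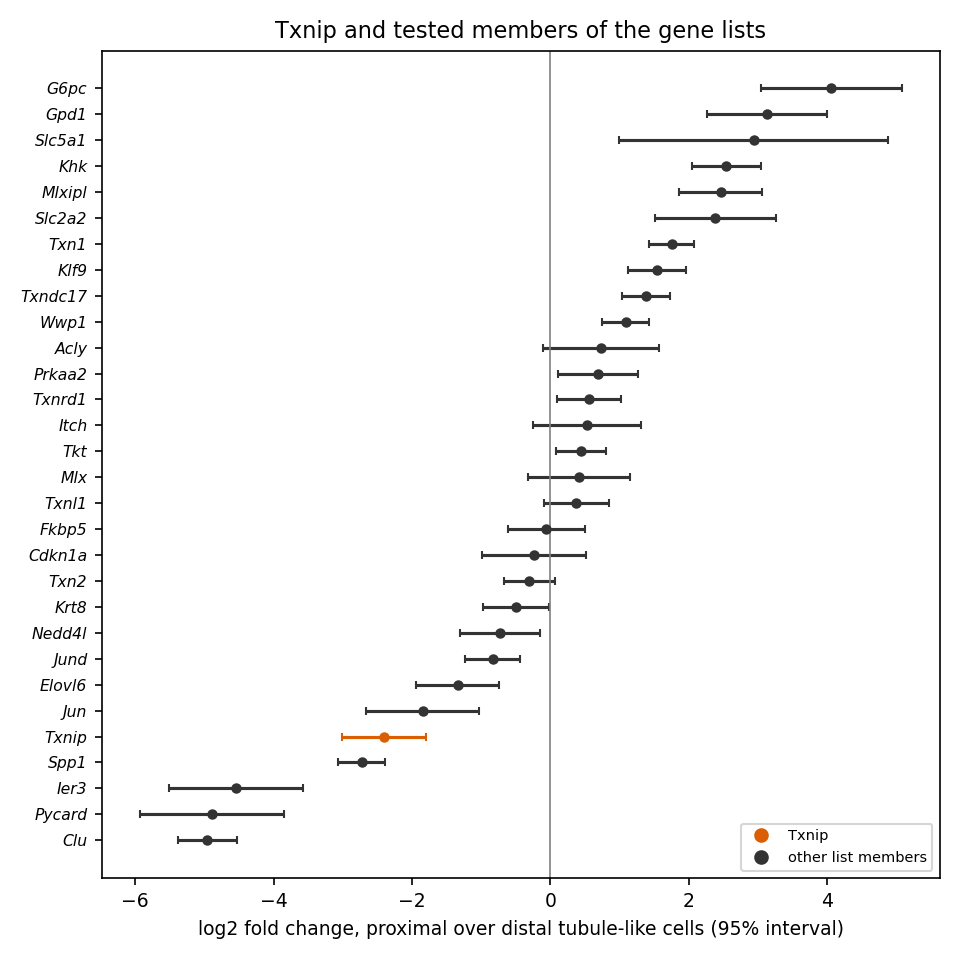
Log2 fold change of Txnip (-2.41, orange) and the 29 tested members of the gene lists (dark), proximal over distal tubule-like cells, with 95% intervals. G6pc (4.06) is at the top and Clu (-4.95) at the bottom, and Txnip lies among the distal genes while the sensor Mlxipl (2.46) lies among the proximal ones.

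The genes whose pattern was most like that of Txnip were sought over 19 sums, each of 1 class in 1 library with at least 10 cells, among 2812 genes with a mean of at least 50 CPM. By Pearson's r of log2(CPM + 10), the 10 nearest were Coq7 (0.85), Tfcp2l1 (0.81), Ndufs4 (0.80), Rwdd1 (0.80), Mbnl2 (0.77), Hadhb (0.76), Slc25a5-ps (0.76), Cs (0.76), Atp5f1 (0.75) and Atp5b (0.75). The sums share libraries, classes and barcodes, so r is a description. By textbook role, Coq7 acts in ubiquinone synthesis, Ndufs4 is a complex I subunit, Hadhb oxidises fatty acids, Cs is citrate synthase, and Atp5f1 and Atp5b belong to ATP synthase. Tfcp2l1 is a transcription factor of the distal nephron. Slc25a5-ps is a pseudogene of an ADP/ATP carrier, and its counts are uncertain because reads may belong to the parent gene. Between genotypes none of the 10 passed the test, as was so for every gene tested. Their log2 fold changes ran from -0.25 (Hadhb) to 0.32 (Cs) over all retained cells. Tfcp2l1 was at 62.0 CPM in proximal, 187 CPM in loop of Henle-like and 1000 CPM in intercalated-like cells, averaged over libraries.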

How the data were processed

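The deposited values are raw UMI counts for each gene in each barcode. STAR 2.5.2b, featureCounts 1.6.0, UMI-tools 0.5.3 and the build GRCm38 are listed in the submitters' processing notes, without their settings. In each file 4 strings that were not barcodes (1.08% to 1.33% of the UMIs) were left out, and identifiers without a symbol held at most 0.0404% of the UMIs. The labels give 24 weeks of housing, longer than any age listed, and 8 mice per group, of which 2 were sequenced.

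Retained cells were clustered in scanpy 1.11.5 (2000 variable genes, Txnip left out; 30 components, 15 neighbours, Leiden resolution 1). A cluster was named after the class with the most markers, at least 3, among its top 50 genes by fold over all other cells. Clusters left unnamed were ranked again over the cells first named other than proximal tubule. The proximal clusters of 353, 252 and 211 cells got their name in that second ranking. Doublets were called with Scrublet. UMIs were summed per library and class and tested with edgeR 4.0.16 (TMM, filterByExpr, quasi-likelihood, Benjamini-Hochberg over all genes tested). The simulated data used to check the fits had independent libraries, so that check does not cover the shared barcodes. DESeq2 1.42.0 and limma 3.58.1 were alternatives. CPM relates UMIs to all UMIs of the same cells, with exact Poisson intervals, and ratios have exact conditional binomial ones. With 2 mice per group, p-values rest on little replication. Every fit to the files as deposited also takes the libraries as independent, which the shared barcodes break, so its p-values and intervals are not calibrated. From each list the 4 members with the highest CPM, and the 10 genes most like Txnip, were to be named; other members named in the text were chosen after their values were seen. The members and lists were chosen with earlier results of these data known.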

Additional observations from a re-analysis of the deposited data

How the results depend on the processing

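The proximal-to-distal difference of Txnip kept its direction and its call in 9 of 9 alternatives, with log2 fold changes from -2.57 to -2.19. Calls over all genes in that contrast were 2026 as reported, 1433 with DESeq2, 3165 with no filter on low counts and 643 with shared barcodes left out, where Txnip was not tested. Merging barcodes with the same first 11 bases over all cells repeated the reported genotype fit exactly (0.81). Leiden resolution 2 did so in distal tubule-like cells (0.76), so neither adds to the counts of agreeing alternatives. With them counted, the fitted genotype log2 fold change stayed positive and uncalled in 18 of 18 alternatives over all cells (0.45 to 1.42). The same held for 20 of 20 in distal tubule-like cells (0.24 to 1.59) and 10 of 10 in loop of Henle-like cells (0.24 to 2.24). In proximal tubule-like cells the genotype log2 fold change ranged from -0.063 (without Akita replicate 1) to 0.96 when 1 library was left out and from 0.23 to 1.11 otherwise. Txnip was untested there with stricter cell filters (500 genes, or 25% mitochondrial UMIs) and with shared barcodes left out. The interaction ranged from -0.97 to 0.18 when 1 library was left out and was 0.0042 with each shared barcode in 1 file. The proximal share of cells with a UMI was higher by 1.36 percentage points in Akita as reported. That difference was -0.624 in 1 random draw of thinning and ranged from -0.543 to 3.27 when 1 library was left out. The cause of these reversals was not tested. Genes called between genotypes numbered 0 as reported and up to 23 over all cells, 12 in proximal and 5 in loop of Henle-like cells, in turn without Akita replicate 2, Wild-type replicate 1 and Akita replicate 2. The interaction had up to 3 calls, without Akita replicate 2. Where 1 library of a group was left out, the lone sample was assumed to vary like the other group.

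Same-numbered libraries deviated in opposite ways (correlation -0.25 over 7169 genes). The barcodes shared by Akita replicate 2 and Wild-type replicate 1 enter these deviations with opposite signs. The correlation therefore cannot show whether the numbers stand for pairs. With the replicate number as a block the log2 fold change of Txnip was 0.85 over all cells, 0.51 in proximal, 0.85 in distal and 1.04 in loop of Henle-like cells, with 0 genes called. Crossed numbers, an alternative added after seeing the data, also called 0 genes. With 125 Txnip UMIs in all, depth limited every class comparison. The intervals of levels, ratios and shares cover counting error only, and those of fitted log2 fold changes also take in the spread between libraries.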
